A study of Rattus norvegicus with 15 samples.

Results

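Untreated diabetic rats, called the diabetic retinopathy model (DR model, 3 arrays), were set against control rats (3 arrays), on 6 of the 15 arrays of the study. The arrays were taken by the groups in the labels, 1 array per rat, and no measured value was used to choose them. The rats were male Sprague Dawley animals 20 weeks old, and their DNA was taken from peripheral blood. DR model rats had received streptozotocin at 45 mg/kg into a vein, and distilled water by gavage afterwards, with no insulin named. Control rats had received the citric buffer without streptozotocin, and distilled water. A rat counted as diabetic when its blood glucose stayed over 13.9 mmol/l for 3 days, measured from 72 h after the injection. The labels name 10 rats in each of the 2 groups, and how 3 were picked for the arrays is not given in the sources used here. The other 9 arrays came from model rats under treatment, 3 each with calcium dobesilate (CaD) plus insulin, with another Chinese formula, and with Luo-tong formula (LTF) plus insulin. They entered the fits only through the shared estimate of the spread, and their values are given where they help to place the 6 arrays.

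Streptozotocin is a toxin that enters the insulin-producing beta cells of the pancreas and kills them, so the model is one of insulin deficiency, and high glucose and a direct action of the toxin on other cells cannot be told apart in it. DNA methylation is the addition of a methyl group to cytosine, in mammals mostly where a guanine follows. It is found over most of the genome, is low at promoters rich in such sites, and differs between the types of white blood cell, so a blood sample gives an average over a mixture of cells. In methylated DNA immunoprecipitation (MeDIP) an antibody against methylated cytosine pulls down DNA fragments, here labelled with Cy5, which compete on the array with input DNA labelled with Cy3. A probe that covers few methylated sites gives a low MeDIP/input ratio whatever the cells do. Tiling arrays that aim at an even melting temperature usually place longer probes where the sequence is rich in A and T, but base composition was not measured here. The probe's length was read from its coordinates on the rn4 assembly of the rat genome. Genes are not named, since the gene table at hand belongs to another assembly, so the markers of blood cell types could not be checked and the cell makeup of the samples was not tested.

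Each array gave 172669 probes, and every value below is a log2(MeDIP/input) ratio with the median probe of its array at 0 unless a sentence says otherwise. Neighbouring probes up to 500 bp apart were averaged into 16782 regions, and the median region held 10 probes over 1655 bp. Any 2 of the 6 arrays correlated at 0.829 to 0.927 over probes. MeDIP signal stood well above background on 77.6% to 88.2% of probes of a DR model array, against 82.5% to 87.4% of a control array. The lowest of these shares belonged to DR model replicate 1. The interquartile range of the log2 ratio was 1.60, 1.52 and 1.22 on the DR model arrays, against 1.35, 1.47 and 1.55 on the control arrays, so DR model replicate 3 had the narrowest spread. Scan times in the file headers put DR model replicate 1 and control replicates 2 and 3 in 1 scan. On scan day 1, DR model replicate 2 stood against control replicate 1. On scan day 3, DR model replicates 1 and 3 stood against control replicates 2 and 3. Values within these scans rest on few arrays and are given where they differ from the whole comparison.

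The difference between DR model and control blood was largest in regions tiled with long probes, where the ratio is low in every group, and there it ran towards higher ratios in the DR model. No single region passed the test. In limma 0 of 16782 regions (0%) passed an adjusted p of 0.05, while 2134 (12.7%) had an unadjusted p under 0.05. Of these 2134, the ratio was higher in the DR model in 1641 (9.78% of all regions) and lower in 493 (2.94% of all regions). All 3 DR model arrays lay above all 3 control arrays in 1422 regions (8.47%) and below all of them in 511 (3.04%). With quantile normalization, which gives every array the same distribution of ratios, these counts were 1033 (6.16%) and 1068 (6.36%), so the surplus of higher regions over the whole array depended on the scaling. The difference, DR model minus control, had a median of 0.04 over all regions, with 5% of regions under -0.15 and 5% over 0.25. With quantile normalization the median was 0.00. The standard error of a region's difference had a median of 0.09, so the median difference was smaller than the median error.

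The probes were first sorted by their own length. The shortest, at 45 nt, formed the largest class with 84007 probes, and averaged 0.37 ± 0.04 in the DR model and 0.33 ± 0.02 in control (SD, n = 3 each). The longest, at 60 nt, averaged -1.11, -1.13 and -0.95 on the DR model arrays, against -0.94, -1.12 and -1.28 on the control arrays. The groups overlapped in both classes. Over the 5 length classes the difference ran only from 0.03 to 0.05, with exact permutation p-values of 0.3 to 0.9, where 3 arrays against 3 cannot give a two-sided p under 0.1. For the 60-nt probes the difference was -0.19 on scan day 1 and 0.17 on scan day 3, and with quantile normalization it was -0.02. Leaving out DR model replicate 3 turned it to -0.00355, and leaving out control replicate 3 to -0.0345. With loess within arrays, by contrast, it was 0.149 (exact permutation p = 0.1), while the 45-nt difference was -0.0171 (exact permutation p = 0.7). The size and direction of the difference by a probe's own length thus depended on the scaling.

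The length of the neighbouring probes went with a separation. Regions were sorted by the mean length of their probes into 7 classes, and 45-nt probes alone were compared across them, so that probes of 1 length stood in different surroundings. In regions with a mean of up to 46 nt, 20453 such probes averaged 0.45, 0.48 and 0.37 on the DR model arrays, against 0.40, 0.40 and 0.44 on the control arrays, and the groups overlapped. In regions with a mean over 56 nt, 307 such probes averaged -0.47, -0.48 and -0.33 on the DR model arrays, against -0.55, -0.54 and -0.66 on the control arrays. Here each DR model array lay above each control array. From the class of shortest to the class of longest surroundings, the difference was 0.02, 0.03, 0.05, 0.05, 0.07, 0.11 and 0.15. In each of the 4 classes with a mean over 50 nt the arrays of the groups did not overlap (exact two-sided permutation p = 0.1 in each, 0.175 adjusted over the 7 classes). In the class over 50 to 52 nt the margin was narrow, with the lowest DR model array at 0.275 and the highest control array at 0.274. The exact p cannot go lower with these arrays, so the test could not reach 0.05.

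**Figure D1:**
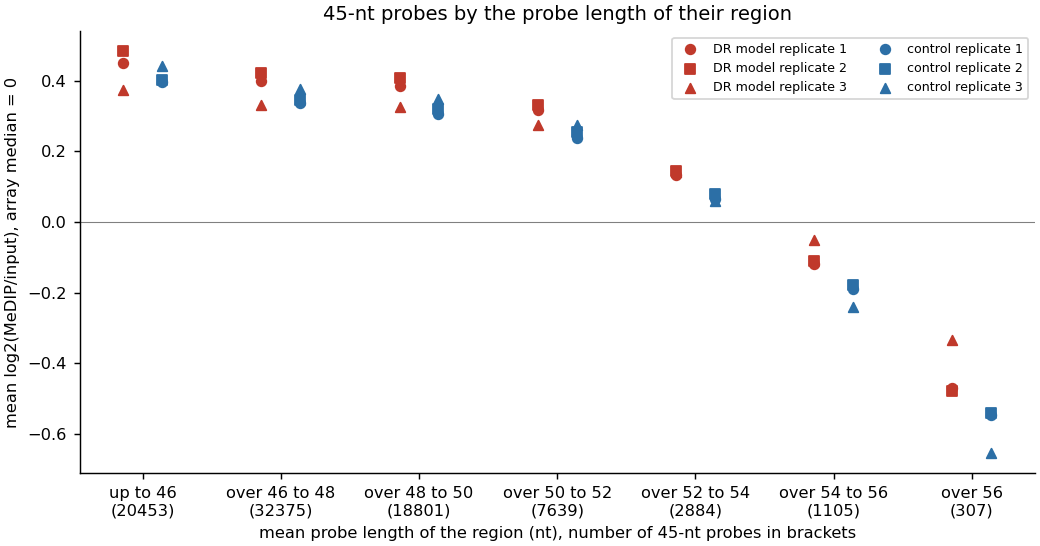
Mean log2(MeDIP/input) of 45-nt probes on each of the 6 arrays, by the mean probe length of the region that holds the probe, with DR model arrays to the left of control arrays and 1 marker shape per replicate number. The groups overlap in regions with short probes and stand apart in the 4 classes over 50 nt, narrowly so in the first of them. The ratio of both groups drops below 0 in the last 2.

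With quantile normalization the same 7 differences were -0.01, 0.00, 0.02, 0.02, 0.04, 0.08 and 0.11, so the shared shift was gone and the rise along the classes was kept. The groups then overlapped in the class over 50 to 52 nt (exact permutation p = 0.2) and stayed apart in the classes above it. With median centring the difference in the last class was 0.07 on scan day 1, 0.20 on scan day 3 and 0.13 within the scan that held both groups. It was 0.11 to 0.18 when single arrays were left out. With loess it was 0.14 (exact permutation p = 0.2) and with normexp 0.08 (p = 0.3), so the groups overlapped under both. In the authors' deposited table it was 0.09 (exact permutation p = 0.1). On scan day 1, however, the differences of the 7 classes stayed between 0.07 and 0.10, so the rise along the classes was absent between those 2 arrays before quantile normalization. After it, scan day 1 gave 0.01 in the first class and 0.12 in the last. The MeDIP signal of the 307 probes was well above background on 88.0%, 94.8% and 94.5% of them on the DR model arrays, against 95.4%, 92.8% and 91.9% on the control arrays. Dim spots were thus few among these probes in both groups.

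The 60-nt probes had a similar order over the classes they fill. In regions with a mean over 46 to 48 nt, 1400 of them differed by -0.04, and in regions over 56 nt, 5273 of them differed by 0.15 (exact permutation p = 0.7 and p = 0.5). With median centring their arrays overlapped in every class, with control replicate 1 high and control replicate 3 low on these probes. On scan day 1 each class was then lower in the DR model, by between 0.12 and 0.23, and on scan day 3 each was higher, by between 0.06 and 0.28. With quantile normalization the differences ran from -0.10 in the class over 46 to 48 nt to 0.06 over 56 nt. In the former class the DR model arrays, at -0.77, -0.81 and -0.84, then lay below the control arrays, at -0.65, -0.73 and -0.75 (exact permutation p = 0.1, 0.6 adjusted over the classes).

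**Figure D2:**
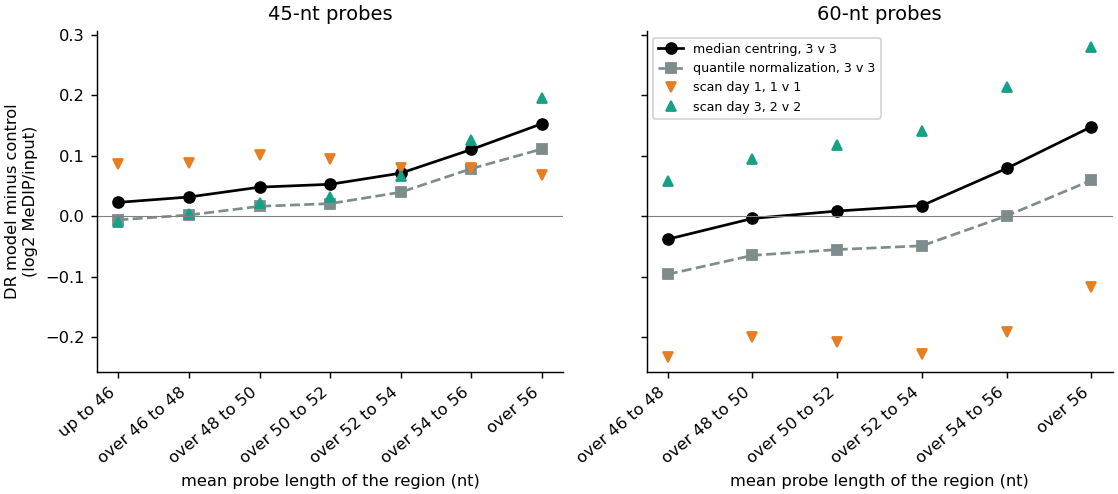
Difference in log2(MeDIP/input), DR model minus control, for 45-nt probes and 60-nt probes by the mean probe length of their region, for all 6 arrays under both scalings and for each scan day under median centring. The 45-nt probes lie at or above -0.01 in every class and setting and reach 0.15 over 56 nt with all 6 arrays and 0.20 on scan day 3, while the 60-nt probes change sign between the scan days.

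Whole regions followed the same order. Of the 855 regions with a mean probe length over 56 nt, with 8722 probes in all, 117 (13.7%) had every DR model array above every control array and 0 had every DR model array below, against 8.47% and 3.04% over all regions. With quantile normalization the counts were 95 (11.1%) and 12 (1.40%), against 6.16% and 6.36% over all regions. In the 2774 regions with a mean of up to 46 nt they were 167 (6.02%) and 78 (2.81%), and with quantile normalization 135 (4.87%) and 160 (5.77%). The lean towards higher ratios in long-probe regions was therefore present under both scalings, and in short-probe regions it was present only under median centring. The difference was above 0 in 84.2% of the 855 regions and in 58.7% of the 2774, and with quantile normalization in 70.4% and 46.1%.

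The median ratio of the 855 regions was -1.23, -1.32 and -1.03 on the DR model arrays, against -1.26, -1.32 and -1.51 on the control arrays. These medians overlapped and differed by 0.17 (exact permutation p = 0.3). The highest belonged to DR model replicate 3 and the lowest to control replicate 3, both scanned on day 3, where the difference was 0.28, while on day 1 it was -0.06. The difference was 0.09 without DR model replicate 3 and likewise 0.09 without control replicate 3. With quantile normalization the difference was 0.10 (exact permutation p = 0.2), with 0.09 on day 1 and 0.10 on day 3, so the scan days gave like values once the arrays shared a distribution. Treated diabetic rats had medians of -1.06 ± 0.07 under LTF, -1.15 ± 0.08 under the other formula and -1.07 ± 0.09 under CaD, against -1.19 ± 0.15 in the DR model and -1.36 ± 0.13 in control (SD, n = 3 each). With quantile normalization they were -1.076, -1.214 and -1.159, against -1.145 in the DR model and -1.241 in control. CaD and the other formula then lay under the DR model. The LTF arrays shared a scan, as did the other-formula arrays, and neither scan held a DR model or control array. MeDIP signal was well above background on 47.8%, 61.3% and 60.4% of these 8722 probes on the DR model arrays, against 62.6%, 56.3% and 54.2% on the control arrays. Many values in these regions therefore rest on dim MeDIP spots, and with probes kept only where every one of the 6 arrays stood well above background in both channels the difference was 0.14. It was 0.25 with loess (exact permutation p = 0.1), 0.05 with normexp (exact permutation p = 0.4) and 0.05 in the authors' deposited table (exact permutation p = 0.6), so its size depended strongly on the processing.

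**Figure D3:**
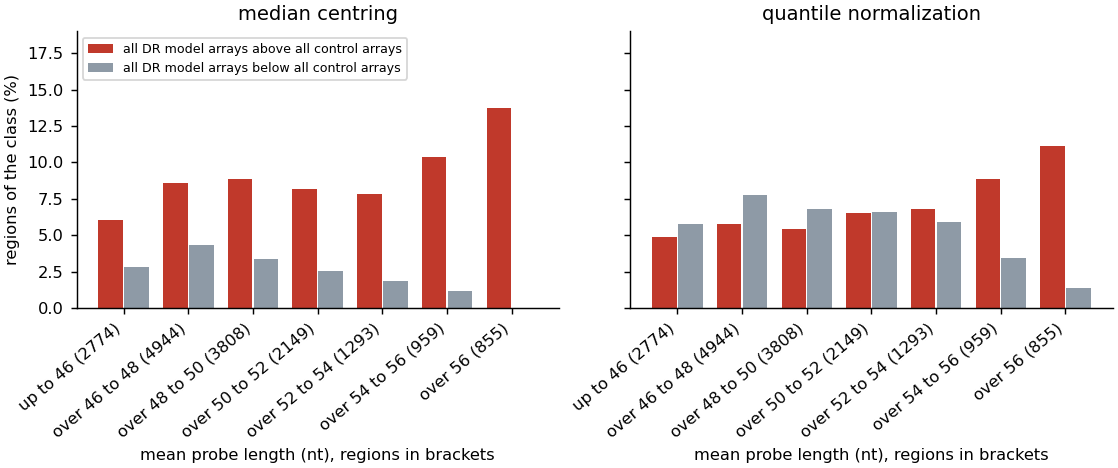
Share of regions in which all 3 DR model arrays lay above, or all below, all 3 control arrays, by the mean probe length of the region, with median centring on the left and quantile normalization on the right. Under both scalings the higher share is largest (13.7% and 11.1%) and the lower share smallest (0% and 1.40%) in regions over 56 nt.

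A ratio can move through either channel, so the channels were read apart, each as a log2 background-subtracted signal minus its array's median. Over the probes of the 855 long-probe regions, the input channel stood at -0.63, -0.67 and -0.83 on the DR model arrays, against -0.40, -0.52 and -0.44 on the control arrays. The input signal was thus lower in every DR model array than in any control array, by 0.26 (exact permutation p = 0.1). The MeDIP channel stood at -1.73, -1.85 and -1.81 on the DR model arrays, against -1.48, -1.66 and -1.78 on the control arrays (difference -0.16, exact permutation p = 0.2). For the 307 probes of 45 nt in these regions, the MeDIP signal differed by 0.00 and the input signal by -0.10 (exact permutation p = 1 and p = 0.2). In these regions the higher ratio of the DR model went with a lower input signal, and not with a higher MeDIP signal. Lower input signal over such probes and a gain of methylation cannot be told apart by the ratio alone.

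Long probes and low ratios go together, so the regions were also sorted by their mean ratio on the 9 treated arrays, which take no part in the difference. In the lowest of 5 bins of equal size, with ratios under -0.52, the median difference was 0.06 for 68 regions of up to 47 nt, 0.06 for 561 over 47 to 50 nt, 0.09 for 920 over 50 to 53 nt and 0.14 for 1808 over 53 nt. With quantile normalization these were 0.00, 0.01, 0.03 and 0.07. The difference thus grew with probe length among the low-ratio regions, but the ratio on the treated arrays was also lower along these classes, with medians of -0.63, -0.65, -0.73 and -1, so length and ratio were not fully separated. In the other 4 bins it showed no such order, with -0.03 to 0.05 in regions over 53 nt.

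All 22 chromosomes of the array, counting unplaced sequence as 1, had a positive mean difference with median centring, and 6 had one with quantile normalization. Chromosome 3 had the highest, at 0.06 over 14127 probes, and there the DR model arrays, at -0.245, -0.243 and -0.188, lay above the control arrays, at -0.250, -0.281 and -0.323 (exact permutation p = 0.1, 0.367 adjusted over chromosomes). The same separation was found on 1 more chromosome, 16, by a narrow margin (lowest DR model array 0.0017, highest control array 0.0008). With quantile normalization the difference was 0.02 on chromosome 3 (exact permutation p = 0.2) and -0.000123 on chromosome 16, and the arrays overlapped on both. Under that scaling the arrays stood apart on chromosomes 1 and 4, with the DR model higher, and on 5, 18 and 19, with it lower. The X chromosome, which male rats carry in 1 copy, averaged -0.31, -0.37 and -0.27 in the DR model, against -0.36, -0.33 and -0.42 in control (difference 0.06, exact permutation p = 0.3). On X the difference was -0.01 on scan day 1. Chromosome 19 had the lowest difference, at 0.01. Across the 22 chromosomes the median difference of a chromosome's regions correlated with its mean probe length at r = 0.71. With quantile normalization r was 0.65, and both describe points that share the same 6 arrays. Of the 855 long-probe regions, chromosome 3 held 175 (20.5%), chromosome 1 held 146 (17.1%), chromosome 8 held 97 (11.3%), chromosome 7 held 76 (8.89%), chromosome 4 held 64 (7.49%) and X held 51 (5.96%). They made up 12.5% of the tested regions of chromosome 3, 6.3% of chromosome 1, 9.91% of chromosome 8, 6.89% of chromosome 7, 6.04% of chromosome 4 and 8.42% of X. Chromosomes 7 and 8, with many of them, had differences of only 0.03 and 0.04.

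Within chromosomes the 3 windows with the largest differences had probes longer than the mean over all regions. Of 305 windows of 5 Mb with at least 20 regions, 269 had a positive median difference, and 135 with quantile normalization. The highest was on chromosome 8 between 15 and 20 Mb, where 67 regions had medians of -1.14, -1.25 and -0.94 on the DR model arrays, against -1.20, -1.28 and -1.48 on the control arrays (median difference 0.21). In this window 14 regions (20.9%) had all DR model arrays above control and 1 had them below, against 8.47% and 3.04% over all regions. With quantile normalization the counts were 13 and 2, against 6.16% and 6.36% over all regions. Next came chromosome 3 between 95 and 100 Mb, with 60 regions and a median difference of 0.19, and chromosome 1 between 215 and 220 Mb, with 56 regions and 0.19. With quantile normalization these windows had median differences of 0.14, 0.12 and 0.11, so the direction of these medians was the same under both scalings. The arrays overlapped in each of the 3 windows, and on scan day 1 the DR model array was the lower one in 2 of them, at -1.25 against -1.20 for control on chromosome 8 and at -1.15 against -1.09 for control on chromosome 1. Their mean probe lengths, 53.6 to 54.4 nt, exceeded the mean over all regions, 49.2 nt. The lowest windows lay on chromosome 2 between 40 and 45 Mb, on chromosome 6 between 130 and 135 Mb and on chromosome 3 between 165 and 170 Mb, with median differences of -0.04, -0.03 and -0.03, far smaller than the highest. Mean probe lengths there were 50.5, 47.2 and 47.1 nt, so the lowest window also exceeded the mean over all regions. Across windows the median difference correlated with mean probe length at r = 0.69, and at 0.60 with quantile normalization.

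Next come 12 regions in each direction, those of smallest p where the groups did not overlap, and since they were chosen by this comparison their values are a description. None passed the adjusted threshold in limma. The 12 higher regions differed by 0.34 to 0.77 (adjusted p = 0.103 to 0.104), and lay at low ratios, with control means of -1.94 to -0.28. Their mean probe length was 48 to 57.2 nt. On chromosome 1 from 64625533 to 64627142, 8 probes averaged -0.73, -0.78 and -0.64 on the DR model arrays, against -1.14, -1.10 and -1.09 on the control arrays, a difference of 0.39 ± 0.07 (SE). Each control array lay close to the other 2 there, and the treated groups had means of -0.74 under LTF, -0.79 under the other formula and -0.69 under CaD.

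The higher regions of rank 2 and rank 5 by p are near neighbours on chromosome 1. From 163981540 to 163983288 the DR model arrays had -0.80, -0.62 and -0.70, against -1.21, -1.18 and -1.08 on the control arrays. From 164074153 to 164075506, 90.9 kb further on, they had -0.62, -0.58 and -0.46, against -1.03, -0.88 and -1.14 on the control arrays. In both, the groups stood clearly apart, by 0.45 ± 0.08 and 0.47 ± 0.09 (SE), and in the second of them each of its 9 probes had a higher mean in the DR model. On chromosome 14 from 107210732 to 107211936 the DR model arrays had -0.81, -0.77 and -0.82, against -1.03, -1.25 and -1.33 on the control arrays. With dim probes left out this difference of 0.40 became -0.05, so it rests on probes that are dim on at least 1 of the 6 arrays. Other higher regions shrank too, to 0.03 on chromosome 13 from 58374201, 0.12 on chromosome 1 from 149410047 and 0.22 on chromosome 1 from 163981540. Among those that could be tested, only the region on chromosome 1 from 62224553 did not shrink, at 0.53. The higher regions on chromosome 2 from 88687468 and chromosome 8 from 17985146 could not be tested. On chromosome 10 from 61571790 to 61573552 the DR model arrays had -0.64, -0.49 and -0.37, against -1.08, -0.84 and -1.02 on the control arrays, with all 10 probes higher in the DR model.

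The 12 lower regions differed by -0.52 to -0.34 (adjusted p = 0.0753 to 0.111 in limma) and sat at higher ratios, with control means of -0.59 to 1.23 and mean probe lengths of 45.5 to 50.4 nt. The smallest p belonged to chromosome 13 from 88595647 to 88597261, where the DR model arrays had 0.12, 0.31 and 0.39, against 0.79, 0.75 and 0.82 on the control arrays, a difference of -0.51 ± 0.08 (SE). Of its 11 probes, 10 had a lower mean in the DR model. Treated rats had means of 0.50 under LTF, 0.38 under the other formula and 0.28 under CaD, all under the lowest control array. On chromosome 6 from 46551293 to 46553048 the DR model arrays had -0.23, -0.19 and -0.31, against 0.21, 0.11 and 0.12 on the control arrays. On chromosome 3 from 11372022 to 11373606 they had 0.12, 0.22 and 0.22, against 0.62, 0.44 and 0.64 on the control arrays.

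The region on chromosome 8 from 126370797 to 126372423 had the highest ratios of the 12. The DR model arrays had 0.78, 0.84 and 0.70 there, against 1.12, 1.19 and 1.39 on the control arrays, and all 11 probes were lower in the DR model. On chromosome 3 from 146487959 to 146489604 the DR model arrays had 0.29, 0.35 and 0.47, against 0.79, 0.68 and 0.83 on the control arrays, with all 9 probes lower in the DR model. A further region of the 12 starts 219 kb before it on the same chromosome. MeDIP signal was well above background for 66.7% to 100% of the values of a lower region in the DR model and for 66.7% to 100% in control, against 44.4% to 100% and 43.3% to 92.6% for the higher regions. With dim probes left out most of the lower regions shrank too, to -0.18 on chromosome 8 from 128248112 and to -0.20 on chromosome 10 from 57067813. Those on chromosome 3 from 146487959 and chromosome 10 from 4612895 did not, at -0.41 and -0.35. With quantile normalization the 12 lower regions differed by -0.49 to -0.33 and the 12 higher ones by 0.27 to 0.65. The sizes of the 24 shrank to between 0.0325 and 0.28 with normexp, where 0 passed in limma, and to between 0.0426 and 0.379 in the authors' deposited table, where 2 did. The region on chromosome 1 from 163981540, at 0.45 with the processed signals, differed by 0.05 with normexp and by 0.12 in the authors' deposited table. With loess within arrays, which flattens the ratio along signal strength, 23 of the 24 passed the adjusted threshold in limma. Under that setting 250 of all tested regions passed (1.49%), 221 higher (1.32% of all) and 29 lower (0.173% of all).

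**Figure D4:**
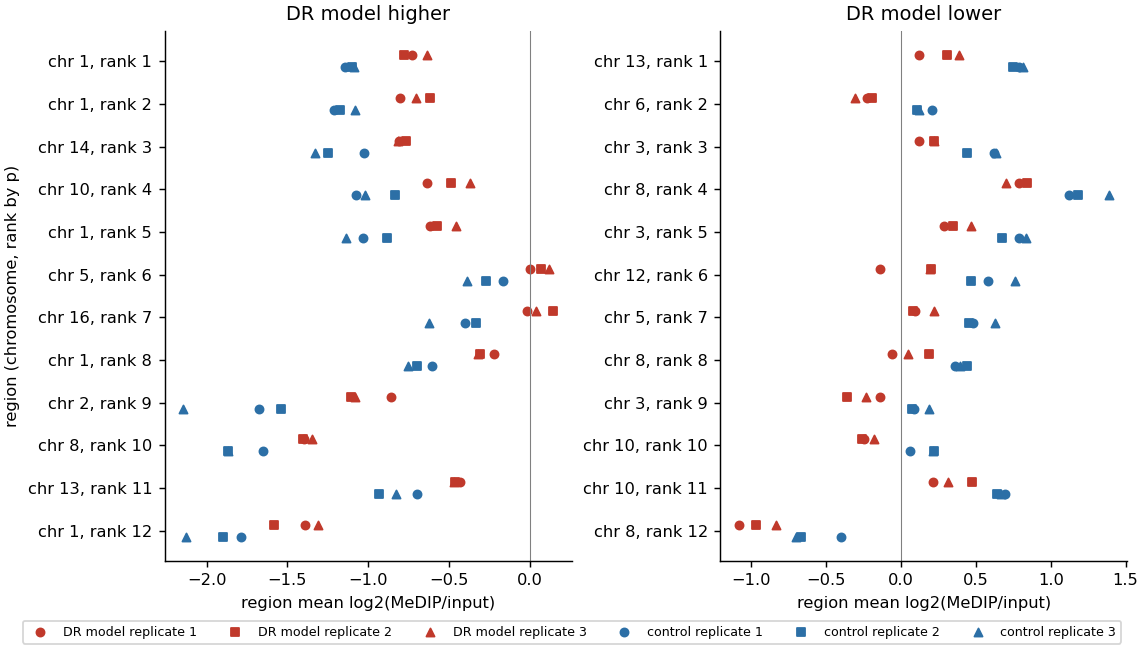
Mean log2(MeDIP/input) on each DR model array (above) and control array (below it) for the 12 higher and the 12 lower regions, labelled by chromosome and by rank of p. The higher regions lie mostly under 0 and the lower ones mostly over it, and the groups do not overlap in any, which is how the regions were chosen.

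Inside the first of each set the difference was uneven. In the higher region on chromosome 1, the probe at 142 bp before the centre, 52 nt long from 64626170 to 64626221, had -1.17, -0.96 and -0.90 on the DR model arrays, against -2.15, -2.35 and -2.18 on the control arrays. This difference of 1.22 ± 0.13 (SE) made it 1 of the 2 probes of 172594 (0.00116%) that passed an adjusted p of 0.05 in limma (adjusted p = 0.0231), while the probes at -460.5 and 379 bp from the centre differed by less than 0.03. The other was a 45-nt probe on chromosome 4 from 83000698 to 83000742, at -1.51, -1.66 and -1.43 on the DR model arrays, against -2.49, -2.73 and -2.51 on the control arrays (difference 1.05 ± 0.11, SE, adjusted p = 0.0231). Both rose in the DR model. Their MeDIP signal was well above background on 3 DR model arrays and on 2 control arrays, so 1 control value of each is a spot near background, and 0 probes passed with quantile normalization, with dim probes left out or with the 6 arrays alone in limma, where 17313 probes (10%) had an unadjusted p under 0.05 with all arrays. Elsewhere in the higher region on chromosome 1, the probe at -620 bp averaged 0.67 in the DR model and -0.09 in control. The probe at 22.5 bp averaged -2.34 and -2.88, and the groups overlapped at neither probe. In the lower region on chromosome 13 the probe 2 bp from the centre averaged 1.22 in the DR model and 2.23 in control, and the remaining lower probes lay on both sides of it.

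**Figure D5:**
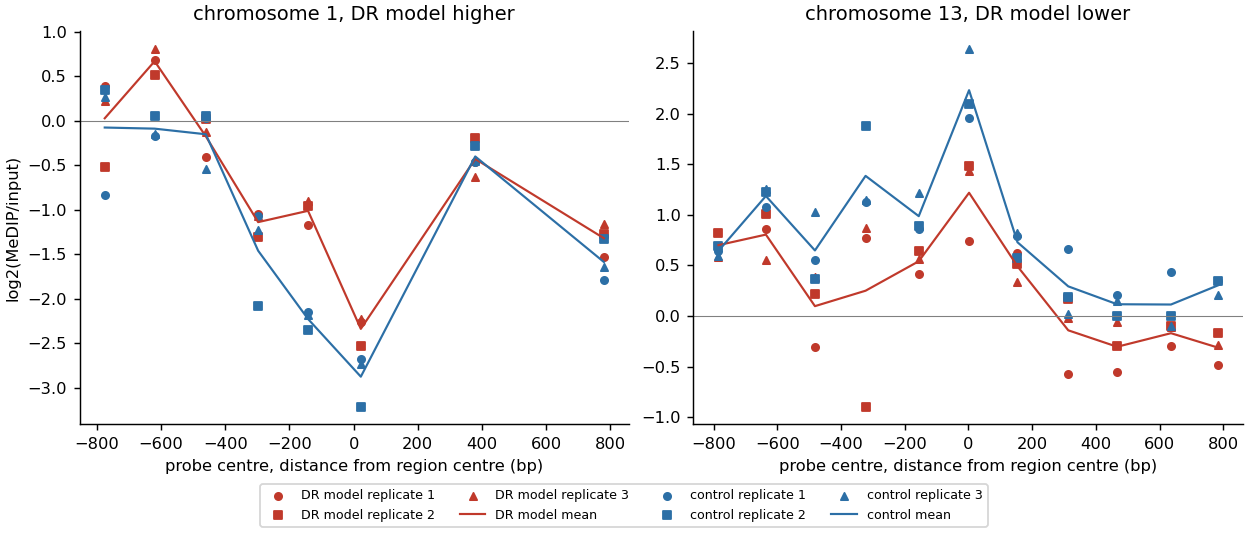
Log2(MeDIP/input) of each probe of the first higher region (chromosome 1, 8 probes) and the first lower region (chromosome 13, 11 probes) against its distance from the region's centre, with points for arrays and lines for group means. On chromosome 1 the DR model line lies furthest above the control line at -142 bp, and also clearly above it at -620 and 22.5 bp. On chromosome 13 it lies below the control line over nearly the whole region, where 1 probe has no value on DR model replicate 1.

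Runs of neighbouring probes give a finer view than whole regions. Single probes with a value on all 6 arrays lay wholly above control in 10476 of 166478 cases (6.29%) and wholly below in 6322 (3.8%), and with quantile normalization in 9783 (5.88%) and 9253 (5.56%). Of those with a right-hand neighbour in their region, 8.07% of the higher and 9.20% of the lower had a neighbour separated in the same direction, both above the shares over all probes. Runs of at least 4 such probes numbered 13, of which 6 were higher and 7 lower, and only 1 had more than 5 probes. That run of 7 probes lay on unplaced sequence from 427098 to 428191, within a region of 11 probes, and averaged 2.13, 2.54 and 2.10 on the DR model arrays, against 1.52, 1.39 and 1.84 on the control arrays. The unplaced sequence is a joined pool of fragments, so neighbours there need not be neighbours in the genome, and with quantile normalization it was not among the runs of 4 or more. The next higher runs, of 4 probes each, lay on chromosome 2 from 12280065 (difference 0.58), on chromosome 1 from 135238843 (0.45), on chromosome 2 from 214765412 (0.32) and on chromosome 5 from 78166532 (0.26).

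Of the 7 lower runs, 4 had 5 probes. Over 5 probes on chromosome 15 from 50818131 to 50818955, the DR model arrays averaged -0.18, -0.31 and 0.11, against 0.40, 1.02 and 0.61 on the control arrays. This difference of -0.80 was the largest of any run, within a region of 24 probes. A pair of lower runs of 5 probes lay 25.8 kb apart on chromosome 8, within wide regions of 78 and 94 probes. The first, from 54429294 to 54430115, averaged -0.18 in the DR model and 0.27 in control, and the second, from 54455900 to 54456567, averaged -0.10 in the DR model and 0.57 in control. One of the 12 lower regions ends 577 kb before the first of them. The wide regions around these runs differed by -0.06 and -0.16, less than the short runs within them. The second of these regions was still among the 5% of all regions with a difference under -0.15. The remaining run of 5 probes, on chromosome 3 from 146488442, belongs to the lower region already described there, and the next lower run has 4 probes on chromosome 14 from 21618006 (difference -0.51). With quantile normalization 17 runs were found, 3 higher and 14 lower, and with loess 33, of which 18 were higher. Of the runs found with 1 array left out, 43 of 63 were higher without DR model replicate 1, 79 of 143 without DR model replicate 2, 84 of 105 without DR model replicate 3, 75 of 97 without control replicate 1, 22 of 78 without control replicate 2 and 16 of 62 without control replicate 3. Neither direction therefore led under every setting.

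Neighbouring probes shared little of their difference. Across 154643 pairs of neighbours the difference correlated at r = 0.12, while the mean ratio of all arrays correlated at 0.45, a description over probes of the same 6 arrays. Position within a region made no visible difference, with 0.04 in each of 5 equal parts from the left edge to the right. Regions of 3 to 5 probes had a median difference of 0.04, with 7.87% wholly above control and 2.93% wholly below. Those of 20 or more had 0.02, with 20 of 375 wholly above control (5.33%) and 11 wholly below (2.93%). Over all regions these shares were 8.47% and 3.04%. With quantile normalization 14 of the 375 lay wholly above control and 39 wholly below, against 6.16% and 6.36% over all regions.

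Which arrays were used mattered for the number of regions that passed. In limma 28 regions (0.167%) passed the adjusted threshold when DR model replicate 2 was left out, and 39 (0.232%) when control replicate 1 was. These are the 2 arrays of the comparison scanned on day 1, each in a scan of its own, and treated arrays were scanned that day too. Leaving out DR model replicate 3 gave 3 regions (0.0179%), and leaving out control replicate 2 gave 2 (0.0119%). The authors' deposited table and a fixed block for scan day each gave 4 regions (0.0238%). Among the 24 regions named above, 8 passed without DR model replicate 2 and 9 without control replicate 1. Within the scan that held both groups 39 regions (0.232%) passed, and within scan day 3, 47 (0.28%) did, each count resting on 1 or 2 arrays a group and a spread taken from the other arrays.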

How the data were processed

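MeDIP DNA (Cy5) and input DNA (Cy3) from rat blood were hybridised to 2-colour tiling arrays, per the labels. Feature Extraction 11.0.1.1 read them, with positions on rn4 (RGSC 3.4), per the file headers. Each deposited file gives, per spot, intensity values, among them processed signals that were background-subtracted and dye-normalised by a linear method per the file headers, and the authors' log10 ratio, which for 99.3% to 99.9% of probes lay within 0.001 (log2) of the ratio of processed signals. The authors also deposited a matrix of processed values, assumed here to be log2, since no source used states its scale, centring or direction. For the 6 arrays its columns correlated with the scanner ratios at 0.846 to 0.886 with medians of 0.01 to 0.04, and it served as an alternative.

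Log2 of Cy5 over Cy3 processed signal was computed for 172669 probes after 6856 control spots were dropped. Outlier spots (235 to 4540 on the 6 arrays) were left out and saturated ones kept, and the median of each array was set to 0. Of 17668 runs of probes with gaps of at most 500 bp, those of 3 or more probes with values on all arrays gave 16782 regions. Region and probe values were fitted with limma 3.58.1 (R 4.3.3, and data.table in version 1.17.8) with 5 group means over 15 arrays and Benjamini-Hochberg adjustment. Group means over probe classes were compared by exact two-sided permutation of arrays. The number of arrays limits the precision. Figures used Python 3.11.15, pandas 2.3.3 and matplotlib 3.10.9.

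The labels call the arrays biological replicates. Deviations of same-numbered arrays correlated at -0.424, -0.381 and -0.286. These values cannot settle whether the numbers pair the rats, since no same-numbered DR model and control arrays shared a scan. The main fits did not use the numbers as pairs. The 24 named regions are, in each direction, the 12 of smallest p where the groups did not overlap, whether or not they passed. The 5 longest runs each way, the 3 highest and 3 lowest windows and chromosomes X, highest and lowest were named too. The comparison, classes and lists were chosen with earlier results of these data known. The classes by the probe length of the region, the separated regions and the 5 bins by ratio were added after seeing the data. Lists of genes and of blood cell markers were not used here, because positions could not be matched to genes. Alternatives were quantile normalization, loess, normexp on median signals (offset 50), the authors' table, outlier spots kept, dim probes left out, other region rules, scan and scan day, a replicate block, the 6 arrays alone and each array left out.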

Additional observations from a re-analysis of the deposited data

How the results depend on the processing

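Regions that passed numbered 0 in limma with all arrays (2134 at an unadjusted p under 0.05), and likewise 0 with quantile normalization (1825), normexp (1946), outlier spots kept (2194), dim probes left out (1975), the 6 arrays alone (984), scan as a random block (2368), gaps up to 1000 bp (2058) and at least 6 probes (1988). They numbered 250 with loess (221 higher), 4 in the authors' deposited table, 4 with scan day as a fixed block, 0 with that block and the 6 arrays (1378), 39 within scan 5, 0 within day 1 (1772), 47 within day 3 and 0 to 39 with single arrays left out. With the replicate block 0 regions passed in limma and 506 had an unadjusted p under 0.05, and whether the numbers pair the rats is not settled. Probes that passed numbered 2, against 0 with quantile normalization, the authors' table, dim probes left out and the 6 arrays alone, 4 with loess, 8 with scan day fixed, 814 within scan 5, 290 within day 1, 91 within day 3, and 0 to 224 with single arrays left out. The 60-nt difference turned to -0.0216 with quantile normalization and -0.19 within day 1, was 0.149 with loess, and ran from -0.0345 to 0.14 with single arrays left out. The 45-nt difference turned to -0.0171 with loess and ran from 0.02 to 0.06. The X difference turned to -0.00772 within day 1 and ran from 0.03 to 0.08. The median of long-probe regions turned to -0.0630 within day 1 and ran from 0.09 to 0.23, and was 0.05 with normexp and in the authors' table. The 45-nt probes of long-probe regions kept their direction under every setting run, at 0.08 with normexp and 0.09 in the authors' table. Their arrays overlapped between the groups with loess and with normexp. Windows with a positive median numbered 135 with quantile normalization and 232 to 281 with single arrays left out. Runs numbered 33 with loess (18 higher), 375 in the authors' table, 1 at 6 or more probes and 62 to 143 with single arrays left out. Regions wholly below control numbered 1068 with quantile normalization, 918 with loess, 304 with normexp, 812 in the authors' table and 817 to 1407 with single arrays left out, and those wholly above 2115 to 2954: 2 arrays against 3 separate more easily. The region on chromosome 14 from 107210732 turned to -0.0510 without dim probes. The cause was not tested for any of these. Gene lists and their alternative were not run.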
